A study of Mus musculus with 4 samples.

Results

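Autophagy is the route by which a cell encloses part of its own contents in a double membrane and delivers it to the lysosome. The ULK1 kinase complex starts the process, a phosphatidylinositol 3-kinase complex marks the membrane where it forms, and WIPI, ATG2 and ATG9 proteins supply lipid to it. Conjugation enzymes then attach small ubiquitin-like proteins of the ATG8 family (the LC3 and GABARAP proteins) to the membrane, and receptors tie cargo to them. In liver, autophagy is a fasting process that releases amino acids and breaks down lipid droplets and mitochondria. The genes described here are the core machinery and its receptors, 36 genes chosen by name from the 54532 genes of the deposited tables, and every one of them was found there.

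The data are RNA-seq of 4 livers from mice with a liver-specific knockout of Cpt1a, which were fasted for 24 h. Cpt1a encodes the outer mitochondrial membrane enzyme through which long-chain fatty acids enter mitochondrial oxidation, and Cpt2 the inner membrane enzyme that completes the transfer. The design text puts as its question the share of each enzyme in liver transcription, and names livers that lack Cpt2, from an earlier series, and littermate controls, all fasted for 24 h. In the names of the authors' comparisons the Cpt1a group is Cpt1a_AlbCre, and AlbCre is the short form in use for Cre recombinase driven by the albumin promoter of hepatocytes. Other liver cells would then keep Cpt1a. The Cpt2 group is Cpt2_AlbCre, and the third group is Rab30Cpt2_f, a name the sources used here do not explain. No source used here gives ages.

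The livers of the Cpt1a knockout had 13138884 to 14116441 counts, and 19732 to 20258 genes had a count. The labels do not say that the 4 samples come from separate mice, so their spread may be technical. Cpt1a was at 24.4, 28.6, 31.1 and 36.9 FPKM in livers 1 to 4, and its log2 fold change was -2.79 against the Rab30Cpt2_f group per the authors' deposited table. For Cpt2 itself the log2 fold change of the Cpt2 group against the Rab30Cpt2_f group was -0.07 (adjusted p = 0.837) per the authors' deposited table. Its transcript was therefore not called lower in the group labelled as lacking Cpt2, although reads summed over all exons may not reveal a deletion of some of them. Markers of the tissue were in place, with a summed 18847 to 27191 FPKM over 6 hepatocyte genes. The 6 Kupffer cell and macrophage genes summed to 112 to 134 FPKM, 5 endothelial genes to 41.5 to 47.2, 5 stellate cell genes to 31.5 to 38.3, 3 red blood cell genes to 147 to 409, 5 lymphocyte genes to 2.98 to 3.83 and 4 bile duct genes to 1.01 to 2.10 FPKM. None of these markers was at 0 in any of the 4 livers. In whole tissue, fewer cells of a type and less RNA per cell cannot be told apart.

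The upstream sequences of 4 genes are shown because these are genes on which the comparisons below turn, 3 of the 5 that were higher in the Cpt1a knockout than in the Cpt2 group (Bnip3, Atg5 and Atg3) and the one with the lowest log2 fold change (Pik3r4). They were chosen after their values were seen, and the set does not follow the values alone. Among the 5, Bnip3l had no matched window. Atg4d, with a log2 fold change of 0.43 beside 0.38 for Atg3, is not shown, and its window held neither CACGTG nor ACGTG. Atg7, which was lower and has CACGTG in a window, is not shown either. The 4 sequences therefore do not show how these motifs are spread over higher and lower genes. Each is the 250 bases before the RefSeq start site (GRCm38.p6), written 5′ to 3′ on the gene's strand, with CACGTG and ACGTG on either strand in capitals. CACGTG is the E-box core bound by TFEB and related factors, which switch on autophagy and lysosome genes, and it contains ACGTG, the core of hypoxia response elements.
Bnip3, chr7:138909507-138909756, minus strand: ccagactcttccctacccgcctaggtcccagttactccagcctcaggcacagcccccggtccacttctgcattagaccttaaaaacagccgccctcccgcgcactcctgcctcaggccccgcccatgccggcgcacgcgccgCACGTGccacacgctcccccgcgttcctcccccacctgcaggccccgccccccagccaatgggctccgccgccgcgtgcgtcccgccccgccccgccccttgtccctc
Atg5, chr10:44268089-44268338, plus strand: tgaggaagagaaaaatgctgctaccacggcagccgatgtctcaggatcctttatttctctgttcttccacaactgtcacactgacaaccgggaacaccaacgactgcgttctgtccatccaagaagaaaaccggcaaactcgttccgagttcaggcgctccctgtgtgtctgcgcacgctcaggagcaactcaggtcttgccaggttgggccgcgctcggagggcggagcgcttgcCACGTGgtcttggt
Atg3, chr16:45158579-45158828, plus strand: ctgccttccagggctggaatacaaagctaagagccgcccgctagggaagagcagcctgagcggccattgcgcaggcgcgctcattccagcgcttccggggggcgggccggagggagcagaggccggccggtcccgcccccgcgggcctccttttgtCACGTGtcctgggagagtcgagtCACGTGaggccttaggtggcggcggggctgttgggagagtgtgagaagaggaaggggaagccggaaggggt
Pik3r4, chr9:105642745-105642994, plus strand: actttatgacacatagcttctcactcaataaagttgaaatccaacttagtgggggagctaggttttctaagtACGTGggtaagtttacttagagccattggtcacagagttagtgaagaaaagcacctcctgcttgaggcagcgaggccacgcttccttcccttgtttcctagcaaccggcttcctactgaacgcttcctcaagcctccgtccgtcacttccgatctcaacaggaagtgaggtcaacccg

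RefSeq windows were matched for 29 of the 36 genes, 32 windows in all. CACGTG occurred on either strand in the windows of 4 genes, Atg3, Atg5, Atg7 and Bnip3, that is in 12.5% of these windows against 6.02% of the 32851 windows of all genes. The windows of Atg3 held it at 94 and at 71 bases before the start site, and held TCACGTGA, which 0.785% of all windows hold. The match of Atg7 lies before a RefSeq start site 27999 bases inside the deposited gene model, so it is not upstream of the whole gene. ACGTG, which every CACGTG contains, occurred in windows of 13 genes, or 40.6% of windows against 16.6% of those of all genes. The windows of the autophagy genes had a median GC content of 59.2%, and those of all genes 52.4%, and the part of base composition in these shares was not tested. GTAAACA (the FOXO motif), TGACGTCA (the cAMP response element) and the direct repeat of PPAR receptors (AGGTCA, any base, AGGTCA) were found in none of the 32 windows and in 3.17%, 1.55% and 0.0335% of all windows.

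All 36 genes were expressed in the Cpt1a knockout livers, from Pik3r4 at 1.56 ± 0.180 FPKM to Bnip3 at 201 ± 21.6 FPKM (SD, n = 4 each). FPKM is the read count per kilobase of gene model and per 1000000 reads of a library size, as the authors deposited it, and levels of different genes are compared on that scale only. The smallest count of any of these genes in any liver was 73. For 6 of the 36 genes, over 10% of the exon bases are shared with another gene. The shares are 43.9% for Becn1, 31.8% for Atg9a (same strand), 28.3% for Gabarapl1, 22.3% for Bnip3, 19.3% for Atg4d and 17.6% for Uvrag. How reads there were counted is not stated, and the effect on these levels was not tested. Rescaled so that each liver sums to 1000000 (TPM), the 36 genes together took 2142, 2151, 2230 and 2091 TPM in livers 1 to 4, a mean of 2153 ± 57.6 (SD, n = 4). Their summed level thus differed little between livers. It was uneven among roles, with 39.0 ± 0.946% of the summed FPKM in the 6 receptors, 35.9 ± 2.13% in the 5 ATG8 family genes, 12.1 ± 0.395% in the 9 conjugation genes, 6.18 ± 0.808% in the 5 initiation genes, 4.19 ± 0.665% in the 5 membrane supply genes and 2.72 ± 0.199% in the 6 nucleation genes (SD, n = 4 each).

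**Figure D1:**
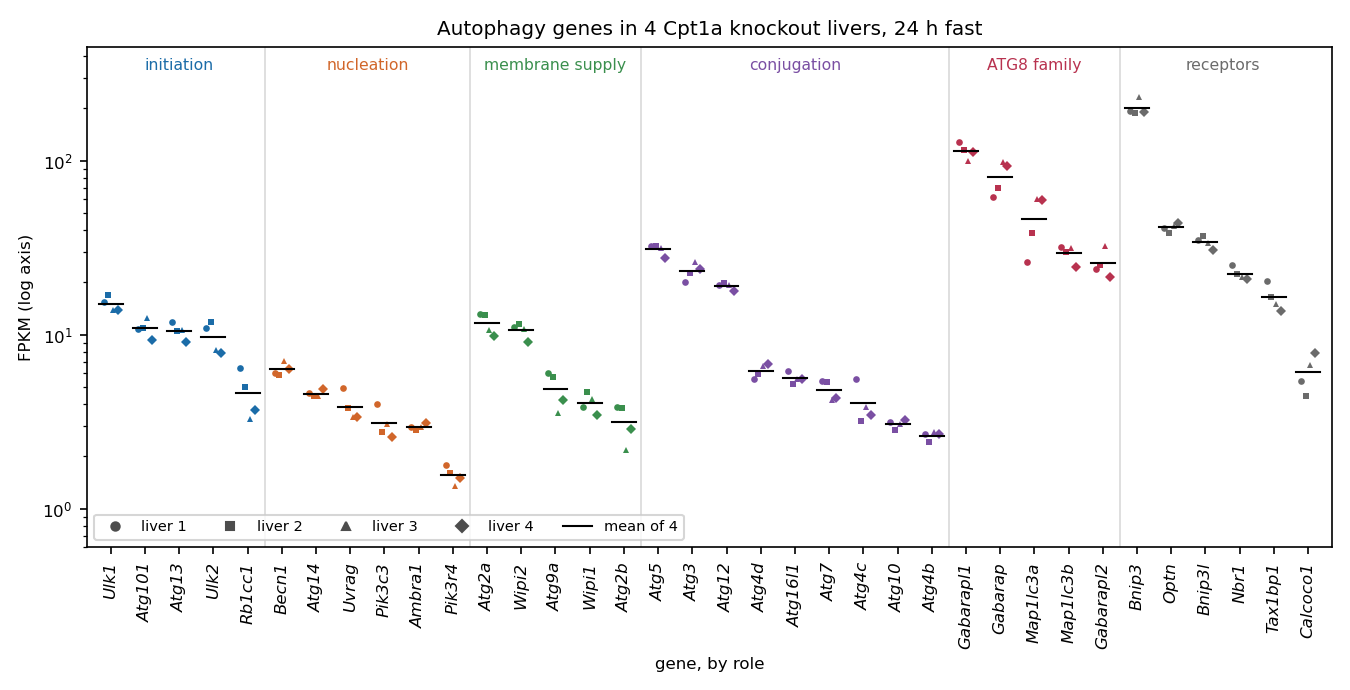
FPKM (log axis) of the 36 autophagy genes in each of the 4 Cpt1a knockout livers, grouped by role, with the mean of the 4 livers as a black line. Bnip3 stands highest at a mean of 201 FPKM and Pik3r4 lowest at 1.56 FPKM, and the points of Map1lc3a are the most widely spread, from 26.2 to 60.3 FPKM.

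In the initiation complex the kinase Ulk1 exceeded its paralog Ulk2 in every liver. Ulk1 was at 15.3, 16.9, 13.9 and 13.9 FPKM and Ulk2 at 10.9, 11.8, 8.19 and 7.84 FPKM in livers 1 to 4, and the ranges did not overlap. Atg101 and Atg13, partners that hold the complex together, averaged 10.9 ± 1.32 and 10.5 ± 1.14 FPKM (SD, n = 4 each) and did not differ beyond their spread. The scaffold Rb1cc1 (FIP200) was the lowest of the complex at 4.62 ± 1.42 FPKM (SD, n = 4).

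The nucleation genes were the least abundant role. Becn1 (Beclin 1), the hub of the lipid kinase complex, was at 6.33 ± 0.537 FPKM, and Atg14, which directs the complex to autophagy, at 4.59 ± 0.205 FPKM (SD, n = 4 each). Pik3c3 (VPS34), the catalytic subunit, had 3.98, 2.75, 3.08 and 2.59 FPKM in livers 1 to 4. Its regulatory subunit Pik3r4 (VPS15) had 1.78, 1.60, 1.35 and 1.50 FPKM, below Pik3c3 in every liver. Uvrag, the subunit of the complex that acts on endosomes, averaged 3.86 ± 0.737 FPKM, and Ambra1, a Beclin 1 partner, 2.96 ± 0.117 FPKM (SD, n = 4 each). Ambra1 was the most even of all 36 genes, with an SD of 0.04 on the log2(FPKM + 1) scale.

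Among the genes that supply membrane, the lipid transfer protein Atg2a was at 11.7 ± 1.65 FPKM and its paralog Atg2b at 3.17 ± 0.804 FPKM (SD, n = 4 each). The ratio of Atg2a to Atg2b lay between 3.42 and 4.91 in the 4 livers. Of the phosphoinositide-binding WIPI proteins, Wipi2 was at 10.6 ± 1.04 FPKM and Wipi1 at 4.07 ± 0.545 FPKM (SD, n = 4 each). Atg9a, the lipid scramblase on the vesicles that seed the membrane, was at 4.88 ± 1.18 FPKM (SD, n = 4).

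The conjugation genes spanned an order of levels with little overlap at the top. Atg5 (chromosome 10, 44268358 to 44364291), which is joined to ATG12, was at 32.2, 32.3, 31.5 and 27.6 FPKM in livers 1 to 4. Atg3, the E2-like enzyme of the ATG8 proteins, was at 20.1, 22.5, 26.2 and 24.0 FPKM, and Atg12 at 19.4, 19.8, 19.3 and 17.8 FPKM. Atg5 lay above both in every liver, while every value of Atg3 exceeded every value of Atg12. The E1-like enzyme Atg7 was far lower, at 4.84 ± 0.654 FPKM, and Atg10, the E2-like enzyme of ATG12, at 3.07 ± 0.171 FPKM (SD, n = 4 each). Of the proteases that trim ATG8 proteins, Atg4d was at 6.22 ± 0.556, Atg4c at 4.03 ± 1.07 and Atg4b at 2.64 ± 0.151 FPKM (SD, n = 4 each). Atg16l1, which places the ATG12-ATG5 conjugate on the membrane, was at 5.63 ± 0.405 FPKM (SD, n = 4).

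In the ATG8 family, Gabarapl1 led in every liver, at 127, 115, 100.2 and 112 FPKM in livers 1 to 4. Gabarap came next with 61.8, 70.1, 98.6 and 92.9 FPKM, and its highest value lay just under the lowest of Gabarapl1. Map1lc3a (LC3A) had 26.2, 38.5, 60.3 and 59.3 FPKM, and its range overlapped those of Map1lc3b and Gabarapl2. Map1lc3b (LC3B), the form most used as a marker of autophagosomes, was at 29.4 ± 3.28 FPKM and Gabarapl2 (GATE-16) at 25.7 ± 4.73 FPKM (SD, n = 4 each), and these did not differ beyond their spread. As shares of the family's summed FPKM, Gabarapl1 took 38.9 ± 6.87%, Gabarap 27.1 ± 3.74%, Map1lc3a 15.3 ± 4.45%, and Gabarapl2 8.68 ± 1.30% (SD, n = 4 each), and Map1lc3b took 7.94 to 11.7%. The order depends on correcting for length, since the gene model of Map1lc3b has 7517 bases and that of Map1lc3a 1181, and by counts Map1lc3b took 31.0 ± 3.40% of the family (SD, n = 4).

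**Figure D2:**
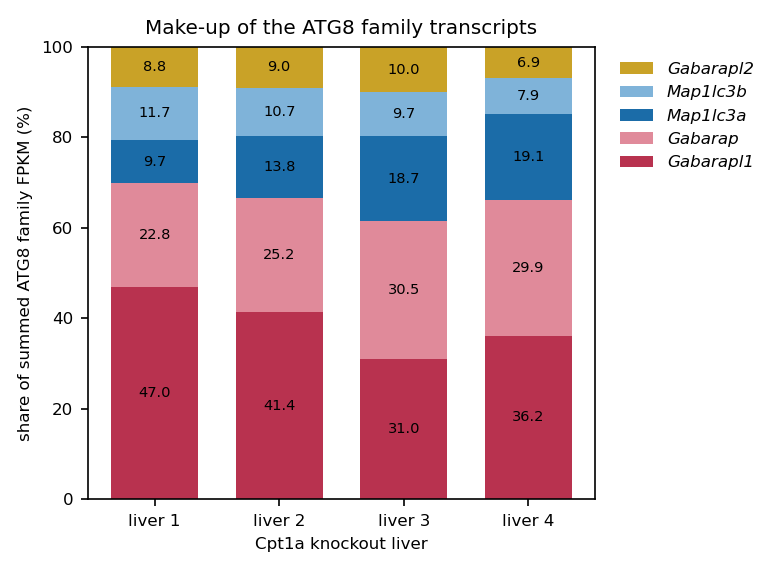
Stacked bars of the share of each ATG8 family gene in the family's summed FPKM (percent), for each of the 4 Cpt1a knockout livers. Gabarapl1 takes 47.0, 41.4, 31.0 and 36.2% in livers 1 to 4, and Map1lc3a 9.68, 13.8, 18.7 and 19.1%.

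Among the receptors, Bnip3 (chromosome 7, 138890836 to 138909519, minus strand), a mitochondrial outer membrane receptor of mitophagy, was the most abundant of all 36 genes. It had 192, 188, 233 and 190 FPKM in livers 1 to 4, ranked 212 among all genes and made up 23.5 to 26.5% of the summed FPKM of the 36 genes. Its paralog Bnip3l (NIX) had 35.2, 36.8, 33.7 and 30.8 FPKM, so that Bnip3 exceeded it 5.92 ± 0.807-fold (SD, n = 4). Optn (optineurin), a ubiquitin-binding receptor, was at 41.4 ± 2.34, Nbr1, a ubiquitin-binding receptor of aggregates and peroxisomes, at 22.4 ± 1.90, Tax1bp1 at 16.4 ± 2.86 and Calcoco1, a receptor for endoplasmic reticulum and Golgi, at 6.12 ± 1.51 FPKM (SD, n = 4 each).

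The SD between livers on the log2(FPKM + 1) scale had a median of 0.15 (a factor of 1.11) for the 36 genes and of 0.20 (a factor of 1.15) for the 10859 genes with a mean FPKM of at least 1. The least even genes were Map1lc3a (SD of 0.56), Rb1cc1 (0.36), Gabarap (0.32) and Calcoco1 (0.31) on that scale. Gene length moved with these differences. Across the 36 genes, Spearman's rho between the length of the gene model and a liver's deviation from the mean of the 4 livers was 0.49 in liver 1, 0.35 in liver 2, -0.51 in liver 3 and -0.25 in liver 4. Across 9505 protein-coding genes with a mean FPKM of at least 1 it was 0.42, 0.31, -0.49 and -0.27, so the autophagy genes followed the whole libraries in this. These are correlations across genes that share a library, and the part of length in the spread of Map1lc3a, Gabarap and Rb1cc1 was not tested.

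**Figure D3:**
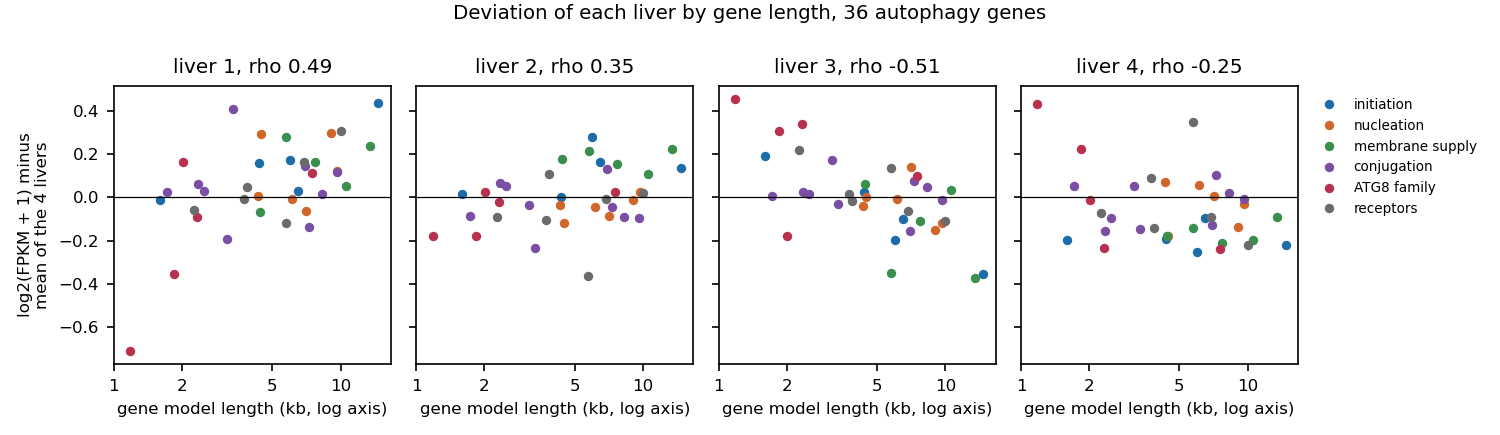
Deviation of each gene from its mean over the 4 Cpt1a knockout livers (log2(FPKM + 1) scale) against the length of its gene model in kilobases (log axis), in a panel per liver, with a point for each of the 36 genes coloured by role. Longer genes sit higher in livers 1 and 2 (rho of 0.49 and 0.35) and lower in livers 3 and 4 (rho of -0.51 and -0.25).

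For the comparisons between groups the authors deposited, for each gene, log2 fold change, raw and adjusted p-values and a mean normalised count per group. No source used here names the test behind them, and the fold changes carry no SD or n. A gene is called here when the authors' adjusted p was below 0.05. No source used here says whether all 3 groups were sequenced together, so genotype and any batch cannot be told apart. The comparison of the Cpt1a knockout with the Rab30Cpt2_f group stops at an unadjusted p of 0.05 and lists 14 of the 36 genes. The other 22 are given by adding their log2 fold changes from both other deposited tables, as a value without a test. Comparisons share groups, so their values are set side by side and are not independent.

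In the Cpt1a knockout against the Rab30Cpt2_f group, 2 of the 36 genes were higher and 3 lower per the authors' deposited table. That is 13.9% of the genes, beside 14.4% of about 16862 genes tested (6.81% higher and 7.60% lower), so the share called was near the background. Among 8496 protein-coding genes at least as abundant as the lowest of the 36, a set chosen after seeing the data, 18.4% were called, 7.04% higher and 11.4% lower. Bnip3 and Atg12 were the higher genes, and Pik3c3, Nbr1 and Atg101 the lower ones. The median log2 fold change over the 36 genes was -0.19, beside 0.01 over the 17054 genes with a value, by the sum of the authors' deposited tables. By that sum 25 of the 36 genes had a negative value, beside 49.5% of all genes.

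Bnip3 had a mean normalised count of 6644 in the Cpt1a knockout, against 4577 in the Rab30Cpt2_f group, a log2 fold change of 0.54 (adjusted p = 0.0400) per the authors' deposited table. Liver 3 was the highest of the Cpt1a livers for this gene, and the authors' value cannot be given without it. Atg12, the ubiquitin-like protein joined to ATG5, had 693 in the Cpt1a knockout, against 518 in the Rab30Cpt2_f group (log2 fold change 0.42, adjusted p = 0.0294) per the authors' deposited table. Pik3c3 had 202 in the Cpt1a knockout, against 345 in the Rab30Cpt2_f group (-0.77, 0.00181), and Nbr1 2248, against 3593 (-0.68, 0.00155), as log2 fold change and adjusted p per the authors' deposited table. Atg101 had 254 in the Cpt1a knockout, against 364 in the Rab30Cpt2_f group (log2 fold change -0.51, adjusted p = 0.0319) per the authors' deposited table. The smallest adjusted p thus belonged to a ubiquitin-binding receptor and to the catalytic subunit of the lipid kinase.

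The other 9 listed genes did not pass. The log2 fold change was -0.46 for Pik3r4 (adjusted p = 0.0746), Atg7 -0.44 (0.0802), Atg13 -0.45 (0.0825), Tax1bp1 -0.42 (0.105), Wipi1 -0.48 (0.122), Atg4b -0.36 (0.172) and Ambra1 -0.46 (0.179) per the authors' deposited table. On the positive side stood Gabarapl2 with 0.43 (adjusted p = 0.0847) and Atg10 with 0.76 (0.0960) per the authors' deposited table. No gene of the membrane supply or ATG8 groups was called there, and the tool behind the test is not named. At an unadjusted p below 0.05 there was 1 gene in each of these groups, Wipi1 and Gabarapl2.

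In the Cpt2 group against the Rab30Cpt2_f group, 4 of the 36 genes were higher and 4 lower per the authors' deposited table. That is 22.2%, beside 21.0% of 17475 genes tested (10.3% higher and 10.7% lower), again near the background. Among the abundant protein-coding genes, 8501 here, 27.8% were called, 13.2% higher and 14.7% lower. The median log2 fold change over the 36 genes was 0.01, beside -0.03 over all genes tested, per the authors' deposited table. The higher genes were Pik3r4, Atg7, Optn and Atg12, and the lower ones Atg101, Atg4c, Ulk2 and Bnip3l.

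Pik3r4 had a mean normalised count of 456 in the Cpt2 group, against 302 in the Rab30Cpt2_f group (log2 fold change 0.59, adjusted p = 0.00183) per the authors' deposited table. Atg7 had 996 in the Cpt2 group, against 670 in the Rab30Cpt2_f group (0.57, 0.00237), and Optn 2820, against 1904 (0.57, 2.15e-04), as log2 fold change and adjusted p per the authors' deposited table. Atg12 had 678 in the Cpt2 group, against 521 in the Rab30Cpt2_f group (log2 fold change 0.38, adjusted p = 0.0310) per the authors' deposited table. These are a subunit of the lipid kinase complex, the shared E1-like enzyme, a receptor and the partner of ATG5. On the lower side Atg101 had 222 in the Cpt2 group, against 365 in the Rab30Cpt2_f group (-0.72, 3.80e-04), and Atg4c 155, against 267 (-0.78, 0.00390), as log2 fold change and adjusted p per the authors' deposited table. Ulk2 had 683 in the Cpt2 group, against 955 in the Rab30Cpt2_f group (-0.48, 0.00680), and Bnip3l 1331, against 1741 (-0.39, 0.0313), as log2 fold change and adjusted p per the authors' deposited table. The initiation complex had 2 lower genes of 5 and no higher one, beside 10.7% of all genes lower and 14.7% of the abundant protein-coding genes. Its other members had log2 fold changes of -0.36 (Rb1cc1), -0.34 (Ulk1) and -0.04 (Atg13) per the authors' deposited table, with adjusted p of 0.146, 0.287 and 0.915.

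The ATG8 family was not called against the Rab30Cpt2_f group in either comparison. In the Cpt2 group its log2 fold changes were 0.35 for Map1lc3a, 0.19 for Gabarapl2, 0.14 for Gabarap, 0.14 for Gabarapl1 and 0.00 for Map1lc3b per the authors' deposited table, with adjusted p of 0.266 to 0.999 and none at an unadjusted p below 0.05. In the Cpt1a knockout the sums of the authors' deposited tables for the genes not listed were 0.22 for Map1lc3a, 0.18 for Map1lc3b, -0.30 for Gabarap and -0.32 for Gabarapl1. A p that misses the threshold does not show that these levels were alike.

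**Figure D4:**
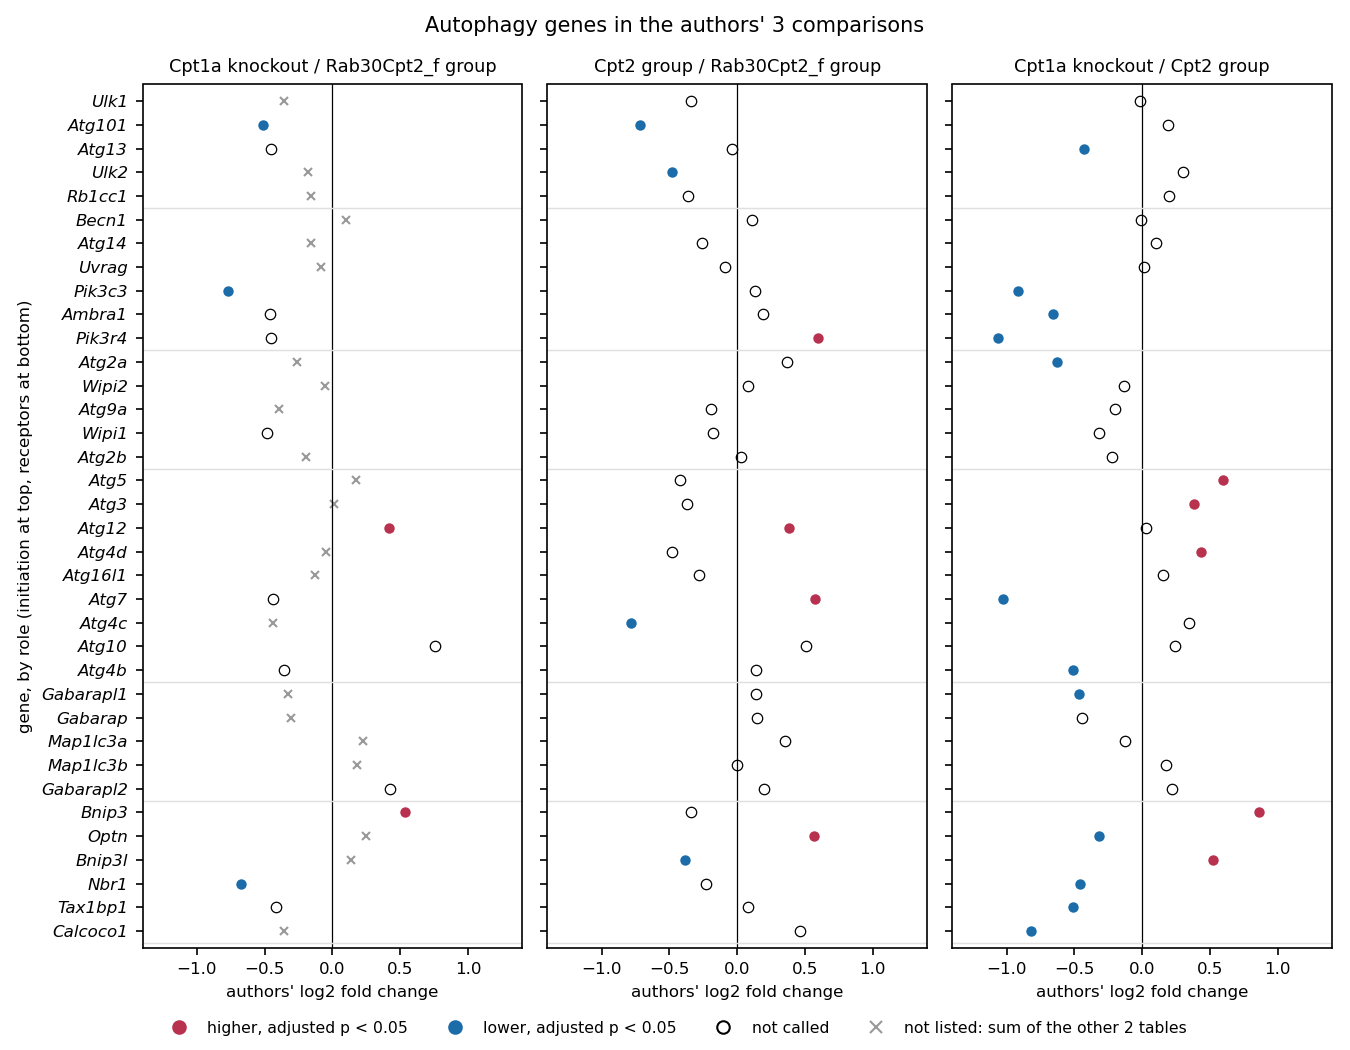
The authors' log2 fold changes of the 36 autophagy genes in 3 comparisons, grouped by role, with the group named on top of each ratio in the panel title. Filled points are genes with an adjusted p below 0.05 (5, 8 and 17 from left to right), open points genes not called, and crosses the 22 genes absent from the partial table, drawn at the sum of the other 2 tables.

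The Cpt1a knockout and the Cpt2 group differed from each other in more of these genes, 5 higher and 12 lower of 36 per the authors' deposited table. That is 47.2%, beside 28.8% of 17755 genes tested. The excess lay in the lower direction, with 33.3% of the autophagy genes lower beside 14.6% of all genes, and 13.9% higher beside 14.2%. Abundant genes were called more often, however. Among the 8502 abundant protein-coding genes with a value here, 39.5% were called, 16.7% higher and 22.8% lower. The median log2 fold change of the 36 genes was -0.07, beside 0.05 over all genes tested, per the authors' deposited table.

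Both kinase subunits of the lipid kinase complex and the E1-like enzyme had the lowest log2 fold changes, while 3 other genes of the complex were not called. Pik3r4 (chromosome 9, 105642978 to 105687657) had a mean normalised count of 229 in the Cpt1a knockout, against 477 in the Cpt2 group, 2.09-fold lower (-1.06 on the log2 scale, adjusted p = 2.43e-10) per the authors' deposited table. Atg7 (chromosome 6, 114643097 to 114860614) had 513 in the Cpt1a knockout, against 1043 in the Cpt2 group, 2.03-fold lower (-1.02, 1.36e-10) per the authors' deposited table. Pik3c3 had 211 in the Cpt1a knockout, against 398 in the Cpt2 group, 1.89-fold lower (-0.92, 2.60e-06) per the authors' deposited table. Against the Rab30Cpt2_f group, Pik3r4 and Atg7 were called only as higher in the Cpt2 group and Pik3c3 only as lower in the Cpt1a knockout. Ambra1 had 276 in the Cpt1a knockout, against 436 in the Cpt2 group (log2 fold change -0.66, adjusted p = 1.62e-04) per the authors' deposited table. Becn1, Uvrag and Atg14, the other subunits, had log2 fold changes of -0.01, 0.01 and 0.10 there, with adjusted p of 0.980, 0.978 and 0.679 per the authors' deposited table.

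The receptors split. The mitophagy pair was higher in the Cpt1a knockout, where Bnip3 had a mean normalised count of 6927, against 3809 in the Cpt2 group, 1.82-fold higher (log2 fold change 0.86, adjusted p = 2.19e-08) per the authors' deposited table. Bnip3l had 2005 in the Cpt1a knockout, against 1393 in the Cpt2 group (0.53, 1.42e-04) per the authors' deposited table. Its processed pseudogene Bnip3l-ps matches 663 bases of a Bnip3l transcript at 99.2% identity and had a mean of 109.5 counts beside 2027 for Bnip3l in the Cpt1a livers, so part of these reads is uncertain. The other 4 receptors were lower than in the Cpt2 group. Calcoco1 had 534 in the Cpt1a knockout, against 941 in the Cpt2 group (log2 fold change -0.82, adjusted p = 6.99e-04) per the authors' deposited table. Nbr1 had 2344, against 3222 (-0.46, 0.00391), Tax1bp1 2490, against 3546 (-0.51, 0.00632), and Optn 2365, against 2951 (-0.32, 0.0252), for the Cpt1a knockout against the Cpt2 group per the authors' deposited table. Against the Rab30Cpt2_f group, the Cpt1a knockout had 0.25 for Optn, 0.14 for Bnip3l and -0.36 for Calcoco1 by the sum of the authors' deposited tables. Calcoco1 had 0.46 in the Cpt2 group there, not called (adjusted p = 0.145) per the authors' deposited table.

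Conjugation genes also moved in both directions. Besides Atg7, the protease Atg4b was lower, with 332 in the Cpt1a knockout, against 473 in the Cpt2 group (log2 fold change -0.51, adjusted p = 0.00140) per the authors' deposited table. Atg5 had 1107 in the Cpt1a knockout, against 732 in the Cpt2 group, 1.51-fold higher (0.60, 5.22e-05) per the authors' deposited table. Atg4d had 688 in the Cpt1a knockout, against 509 in the Cpt2 group (0.43, 0.0173), and Atg3 1114, against 854 (0.38, 0.0304), as log2 fold change and adjusted p per the authors' deposited table. Against the Rab30Cpt2_f group, Atg5, Atg4d and Atg3 had 0.17, -0.04 and 0.01 in the Cpt1a knockout by the sum of the authors' deposited tables. In the Cpt2 group they had log2 fold changes of -0.42, -0.48 and -0.37 per the authors' deposited table. None of these was called there, with adjusted p of 0.128, 0.155 and 0.0888. The exons of Atg4d, among the 6 genes with over 10% of shared exon bases, share 1405 bases with Kri1 on the opposite strand. Reads there cannot be told apart without strand. Atg12, the partner of ATG5, did not pass (0.03, adjusted p = 0.896) per the authors' deposited table. Of the 4 genes with CACGTG in a window, Bnip3, Atg5 and Atg3 were higher and Atg7 was lower. Atg4d was higher with neither CACGTG nor ACGTG in its window. The printed genes were picked with their values known and not by value alone, so nothing is read from this.

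In the remaining roles single genes were called. Atg2a had 1367 in the Cpt1a knockout, against 2113 in the Cpt2 group (log2 fold change -0.63, adjusted p = 0.0198), and the other 4 membrane supply genes had log2 fold changes of -0.32 to -0.14 that did not pass per the authors' deposited table. Atg13 had 701 in the Cpt1a knockout, against 941 in the Cpt2 group (-0.43, 0.00767) per the authors' deposited table. Gabarapl1 had 3489 in the Cpt1a knockout, against 4809 in the Cpt2 group (-0.46, 0.0136), and Gabarap 2270, against 3092 (-0.45, 0.0673), per the authors' deposited table. The other ATG8 genes had log2 fold changes of 0.22 (Gabarapl2), 0.18 (Map1lc3b) and -0.13 (Map1lc3a) per the authors' deposited table, with adjusted p of 0.363 to 0.760.

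**Figure D5:**
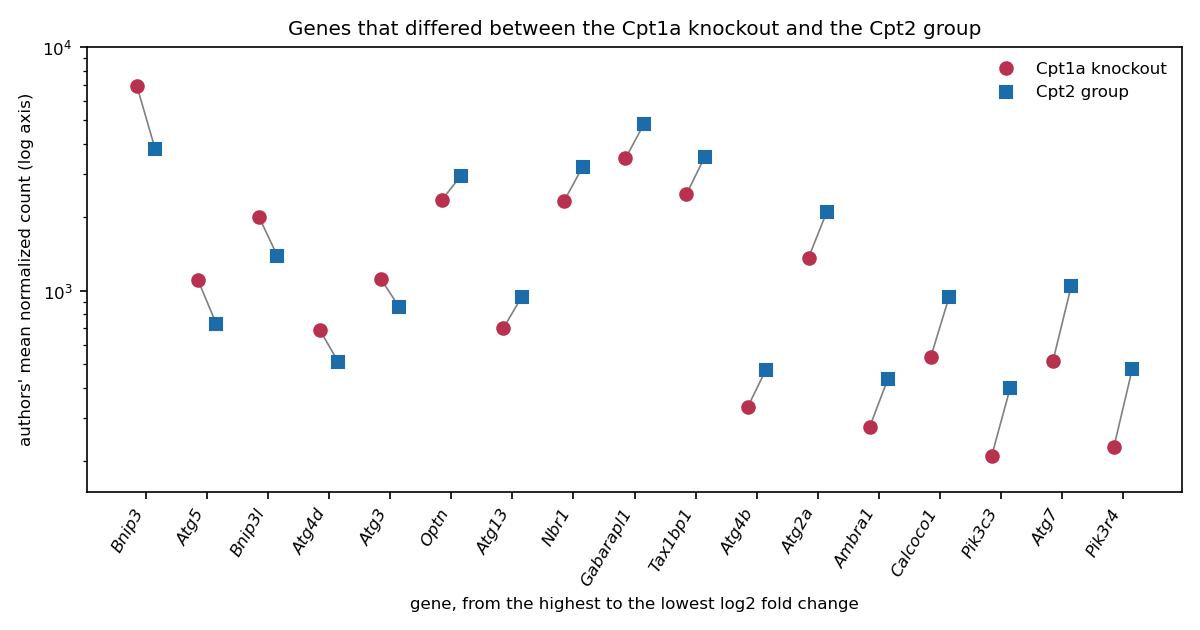
The authors' mean normalised count (log axis) of the 17 autophagy genes that differed between the Cpt1a knockout (circles) and the Cpt2 group (squares), ordered from the highest to the lowest log2 fold change. Lines join both groups of a gene, and the ends of the order are Bnip3 (6927 and 3809) and Pik3r4 (229 and 477).

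Markers of other cells and gene length moved with the comparison of the Cpt1a knockout with the Cpt2 group. Of 6 Kupffer cell and macrophage markers 5 were higher and 1 lower per the authors' deposited table, and their mean normalised counts summed to 4042 in the Cpt1a knockout and 2546 in the Cpt2 group. Lymphocyte markers were higher in 3 of 5 (303 and 113), red blood cell markers in 3 of 3 (4079 and 1902) and endothelial markers in 2 of 5 (3403 and 2596), as calls and summed means, Cpt1a knockout before Cpt2 group, per the authors' deposited table. Hepatocyte markers had 1 higher and 1 lower of 6 (749275 and 758553), stellate cell markers 1 and 1 of 5 (3287 and 3841) and bile duct markers 1 higher of 4 (68.7 and 47.2), in the same order per the authors' deposited table. Against the Rab30Cpt2_f group, hepatocyte markers were lower in 4 of 6 in the Cpt1a knockout and in 5 of 6 in the Cpt2 group per the authors' deposited tables. Their mean normalised counts summed to 724930 in the Cpt2 group and 1673140 in the Rab30Cpt2_f group per the authors' deposited table. Lymphocyte markers were higher in 3 of 5 in the Cpt1a knockout, Kupffer cell and macrophage markers in 1 of 6 and stellate cell markers in 1 of 5, and the other lists had no call per the authors' deposited table. In the Cpt2 group, red blood cell markers were lower in 3 of 3, with summed means of 1818 in the Cpt2 group and 5173 in the Rab30Cpt2_f group per the authors' deposited table. Kupffer cell and macrophage markers had 1 higher and 2 lower of 6 (2433 in the Cpt2 group and 2789 in the Rab30Cpt2_f group), and endothelial and bile duct markers 1 lower each, per the authors' deposited table. Across the 36 genes, Spearman's rho between gene model length and the log2 fold change of the Cpt1a knockout against the Cpt2 group was -0.31, beside -0.085 across 9494 protein-coding genes with a mean FPKM of at least 1. Against the Rab30Cpt2_f group it was -0.25 in the Cpt1a knockout by the summed values, beside -0.074 across 9484 such genes. For the Cpt2 group it was 0.01 there, beside 0.006 across 9490. The part of other cells and of length in the calls was not tested.

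Further genes of the pathway were taken from lists by role. Of 11 other core genes, 3 were higher and 3 lower in the Cpt1a knockout than in the Cpt2 group per the authors' deposited table, with a median log2 fold change of 0.04. That is 54.5% of all 11, of which 10 were tested, beside 28.8% of all genes tested and 39.5% of the abundant protein-coding genes. Nrbf2, a subunit of the lipid kinase complex, had -0.72 (adjusted p = 0.00122), Wdr45b (WIPI3) 0.46 (0.00381), Atg4a, a further ATG8 protease, 0.53 (0.0115), and Ei24 0.38 (0.0153) as log2 fold change per the authors' deposited table. Against the Rab30Cpt2_f group none of the 11 was called in the Cpt1a knockout or the Cpt2 group, with 4 in the Cpt1a knockout and 1 in the Cpt2 group at an unadjusted p below 0.05 per the authors' deposited tables. Of all genes, 14.4% and 21.0% were called in these comparisons, in that order.

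Of 16 further receptors, 1 was higher and 3 lower in the Cpt1a knockout than in the Rab30Cpt2_f group, 3 were higher and 1 lower in the Cpt2 group than in the Rab30Cpt2_f group, and 3 were lower in the Cpt1a knockout than in the Cpt2 group per the authors' deposited tables. These are 25%, 25% and 18.8% called, beside 14.4%, 21.0% and 28.8% of all genes and 18.4%, 27.8% and 39.5% of the abundant protein-coding genes. Sqstm1 (p62), the ubiquitin-binding receptor that is itself degraded by autophagy, was at 106 FPKM on average in the Cpt1a livers. Its log2 fold change was 1.19 in the Cpt2 group against the Rab30Cpt2_f group and -1.69 in the Cpt1a knockout against the Cpt2 group per the authors' deposited tables. In the Cpt1a knockout against the Rab30Cpt2_f group Sqstm1 had -0.49 (adjusted p = 0.107) per the authors' deposited table. Stbd1, a glycogen-binding receptor, was higher in both, with log2 fold changes of 1.13 in the Cpt1a knockout and 0.78 in the Cpt2 group per the authors' deposited tables. Ncoa4, the ferritin receptor, was lower in both, with log2 fold changes of -1.35 and -1.11 in the same order per the authors' deposited tables. Tex264, a receptor of endoplasmic reticulum, had log2 fold changes of -0.53 (adjusted p = 0.0369) in the Cpt1a knockout against the Rab30Cpt2_f group and -0.81 (9.66e-09) against the Cpt2 group per the authors' deposited tables.

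Of 14 genes for fusion with the lysosome, 1 was higher and 6 were lower in the Cpt1a knockout than in the Cpt2 group per the authors' deposited table, with a median log2 fold change of -0.23. That is 50.0% called and 42.9% lower, beside 28.8% and 14.6% of all genes and 39.5% and 22.8% of the abundant protein-coding genes. The tethering subunits Vps11, Vps16 and Vps18, of the HOPS complex, had log2 fold changes of -0.83, -0.85 and -0.83, and the fusion SNARE Stx17 (syntaxin 17) had 0.72 per the authors' deposited table. In the Cpt2 group against the Rab30Cpt2_f group 2 of the 14 were higher, Vps11 (log2 fold change 0.47, adjusted p = 0.0195) and Vps41 (0.71, 0.00212), per the authors' deposited table. That is 14.3%, beside 10.3% of all genes and 13.2% of the abundant protein-coding genes, so near the background. In the Cpt1a knockout against the Rab30Cpt2_f group none of the 14 was called and 2 had an unadjusted p below 0.05 per the authors' deposited table. Of all genes 14.4% were called there, and of the abundant protein-coding genes 18.4%.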

How the data were processed

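RNA from 4 livers of 1 group was sequenced, and the submitters' processing notes name the aligner HISAT2 and the build GRCm38 (mm10). The authors deposited raw counts per gene and FPKM values. No source used here gives the counting tool, annotation release or strand setting. The authors deposited 3 comparison tables with log2 fold changes, p-values and adjusted p-values, and with a mean normalised count per group, a score whose normalisation is not stated, per the file headers. Another 8 columns of per-sample values match none of these samples and were not used.

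From these files, means and SDs over livers 1 to 4, TPM (FPKM rescaled to a sum of 1000000) and SDs of log2(FPKM + 1) were computed with Python 3.11.15, pandas 2.3.3 and numpy 2.4.6, with scipy 1.17.1 for rank correlations. No test between groups was fitted, since the series holds 1 group of samples. Calls are the authors' adjusted p below 0.05, and an adjusted p of exactly 1 was read as not adjusted. Shares of a list are of all its genes, and background shares are of genes tested. In the Cpt2 group against the Rab30Cpt2_f group, 10 of 11 further core genes and 15 of 16 further receptors were tested. So were 25 of 26 nutrient sensor genes and 17 of 18 transcription factor entries. The deposited table that sets the Cpt1a knockout against the Rab30Cpt2_f group lists 4461 genes, and the number tested, 16862, was worked out from its adjusted p-values. Over 4424 genes its log2 fold changes and the sums of the other 2 tables had a Pearson r of 0.999989 and a median difference of 0.012.

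Upstream windows came from RefSeq. Alternatives used edgeR 4.0.16 (TMM) and DESeq2 1.42.0 (size factors) in R 4.3.3 for scaling the counts only. Scripts were tested on simulated data. The genes and lists were chosen with earlier results of these data known. Every gene of the 36 could be named with its level. Named with a comparison were genes called in at least 1 of them, the ATG8 and ULK groups, and at most 4 genes of each other list by smallest adjusted p. Wipi1, Atg10, Becn1, Atg14, Uvrag and Vps41 fall outside this rule and were named after their values were seen.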

Additional observations from a re-analysis of the deposited data

Results flagged for a closer look

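In liver 3 of the Cpt1a knockout Bnip3 stood at 233 FPKM, apart from the other livers, and its gap to the next was 0.902 of the range of the 4 values. It was the only such value in 42 sets of 4 values examined, of which chance gives about 1 in 20.

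The change against the Rab30Cpt2_f group differed between the Cpt1a knockout and the Cpt2 group for 17 of the 36 genes, by the direct comparison per the authors' deposited table (adjusted p below 0.05). That is 47.2%, beside 28.8% of all genes and 39.5% of protein-coding genes at least as abundant as the lowest of the 36. The log2 fold change of the Cpt1a knockout against the Cpt2 group per the authors' deposited table was 0.86 for Bnip3, 0.60 for Atg5, 0.53 for Bnip3l, 0.43 for Atg4d and 0.38 for Atg3. On the lower side of the same deposited table of the authors it was -1.06 for Pik3r4, -1.02 for Atg7, -0.92 for Pik3c3, -0.82 for Calcoco1, -0.66 for Ambra1 and -0.63 for Atg2a. It was -0.51 for Atg4b, -0.51 for Tax1bp1, -0.46 for Gabarapl1, -0.46 for Nbr1, -0.43 for Atg13 and -0.32 for Optn per the authors' deposited table.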

How the results depend on the processing

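Of the alternatives to the summary values, 56 kept their size or count and 13 did not. Those of the calls change only the threshold on the same deposited fold changes, so they cannot test a direction. The tally does not measure robustness. Leaving out a liver cannot move the mean summed level or a mean share by the SD over the livers, which was the limit used for them. The unit alone sets FPKM and counts per 1000000 apart from TPM. With a mean FPKM of at least 5, 23 genes counted as detected. The summed level was 824 as FPKM and 3245 as counts per 1000000. By counts, Map1lc3a took 7.58%, Map1lc3b 31.0% and Gabarap 20.8% of the ATG8 family, and counts, unlike FPKM, grow with gene length. In the Cpt1a knockout against the Rab30Cpt2_f group, an adjusted p below 0.01 left 0 higher genes, below 0.1 gave 4 higher and 6 lower, and a minimum size of 0.5 for the log2 fold change left 1 higher. That fold minimum left 2 lower genes in the Cpt2 group against the Rab30Cpt2_f group. In the Cpt1a knockout against the Cpt2 group, 3 higher genes were left by an adjusted p below 0.01 and 3 by the fold minimum. Of the 30 calls, 10 did not hold at 0.01, those of Atg12, Atg101 and Bnip3 in the Cpt1a knockout and of Atg12 and Bnip3l in the Cpt2 group against the Rab30Cpt2_f group, and of Gabarapl1, Atg4d, Atg2a, Optn and Atg3 between the Cpt1a knockout and the Cpt2 group.

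Leaving out each liver in turn kept 36 genes detected, a summed level of 2128 to 2174 TPM, a median SD of 0.12 to 0.17, and shares of 36.2 to 41.5% for Gabarapl1, 26.0 to 28.5% for Gabarap, 14.1 to 17.2% for Map1lc3a, 9.45 to 10.7% for Map1lc3b and 8.23 to 9.27% for Gabarapl2. The authors' comparisons cannot be recomputed without a library here. No paired analysis was possible because the series holds 1 group of samples.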

Other observations

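Of 26 genes of the MTORC1 and AMPK nutrient sensors that control autophagy, 2 were higher and 6 lower in the Cpt1a knockout than in the Cpt2 group, with a median log2 fold change of -0.36, per the authors' deposited table. That is 30.8% called, near the 28.8% of all genes and below the 39.5% of protein-coding genes at least as abundant as the lowest of the 36. Mtor, the kinase that restrains autophagy, had log2 fold changes of 1.30 in the Cpt2 group against the Rab30Cpt2_f group and -1.39 in the Cpt1a knockout against the Cpt2 group per the authors' deposited tables. Prkab2, a regulatory subunit of AMPK, had 1.84 and -1.53 in the same comparisons of the authors' deposited tables, at a mean of 0.646 FPKM in the Cpt1a livers. Prkag2, another AMPK subunit, had -1.07 in the Cpt2 group against the Rab30Cpt2_f group and 0.62 in the Cpt1a knockout against the Cpt2 group per the authors' deposited tables. Ddit4, an inhibitor of MTORC1, had -0.86 in the Cpt1a knockout against the Cpt2 group per the authors' deposited table. In the Cpt2 group its mean normalised count was 204, against 2048 in the Rab30Cpt2_f group, a log2 fold change of -3.33 with no p-value per the authors' deposited table. Ddit4 thus has no test result there, and whether a single library carries the difference cannot be seen from group means. Against the Rab30Cpt2_f group, 0 genes of this list were higher and 2 lower in the Cpt1a knockout, and 4 were higher and 2 lower in the Cpt2 group, per the authors' deposited tables. These are 7.69% and 23.1% called, beside 14.4% and 21.0% of all genes and 18.4% and 27.8% of the abundant protein-coding genes.

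Among 18 gene entries for transcription factors and cofactors of autophagy, 2 were lower in the Cpt1a knockout than in the Rab30Cpt2_f group, 2 were higher and 3 lower in the Cpt2 group than in the Rab30Cpt2_f group, and 3 were higher and 4 lower in the Cpt1a knockout than in the Cpt2 group, per the authors' deposited tables. These are 11.1%, 27.8% and 38.9% called, beside 14.4%, 21.0% and 28.8% of all genes and 18.4%, 27.8% and 39.5% of the abundant protein-coding genes, so the shares were near the background. Foxo1 and Foxo4, which switch on autophagy genes when insulin is low, were lower in both groups against the Rab30Cpt2_f group. Foxo1 had log2 fold changes of -0.87 in the Cpt1a knockout and -1.02 in the Cpt2 group, and Foxo4 of -0.63 and -0.70 in that order, per the authors' deposited tables. Trp53inp1 had -1.65 in the Cpt2 group against the Rab30Cpt2_f group, and Tfe3, a relative of TFEB, -0.59 in the Cpt1a knockout against the Cpt2 group, as log2 fold changes per the authors' deposited tables.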
